A study of Mus musculus with 12 samples.

Results

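Bhlhe40, a basic helix-loop-helix repressor of transcription, was examined in single mouse morulae together with 9 genes of the hypoxia pathway, to ask whether it was high alone or with them. The 10 genes were Bhlhe40, the hypoxia-inducible factor (HIF) subunits Hif1a, Epas1 and Arnt, the oxygen-sensing genes Vhl, Egln1 and Egln3, and the target genes Vegfa, Bnip3 and Adm. They were found on the array by matching each probe's accession to a RefSeq gene symbol. A probe was matched for 9 of the 10 genes, by 15 of the 41174 probes on the array, and all 15 were kept after the filter on dim probes. A dimmer Epas1 probe and a dimmer Vegfa probe passed that filter only through the clones. The 9 genes were among 19038 genes tested. Vhl was matched by no probe and is not analysed here. Bhlhe40 was singled out with its levels in the clones already known, so its differences between IVF, siCont and siXist embryos are given as a description, with no test.

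The arrays, single-colour Agilent expression arrays, were hybridised with amplified RNA from 1 morula each, the stage before the blastocyst. There were 4 embryos from in vitro fertilisation (IVF), which were not treated, and 8 clones made with nuclei of Sertoli cells, the supporting cells of the testis. Of the clones, 4 had been injected with a control siRNA (siCont) and 4 with an siRNA against Xist, the RNA that silences an X chromosome (siXist), at 6 to 7 h after activation. All 12 embryos were (C57BL/6 x DBA/2) F1 and were cultured in the medium KSOM for 72 h. IVF embryos 1 and 3 were male, IVF embryos 2 and 4 were female, and all 8 clones were male. The clones carried both a transferred nucleus and an injected siRNA, and no clone without an injection was analysed here.

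HIF is a pair of proteins, an alpha subunit that is made all the time and a constant partner, ARNT. When oxygen is plentiful, prolyl hydroxylases mark the alpha subunit, VHL binds the mark, and the protein is destroyed. When oxygen is low the alpha subunit lasts, enters the nucleus with ARNT and switches on genes for glycolysis, blood vessel growth and the removal of mitochondria, and Bhlhe40 is one of its known targets. Much of this control acts on protein, which an array of RNA does not measure.

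Levels are log2 signals relative to the 75th percentile of all probes of the same array, so 0 is a probe as bright as that percentile and each unit is a doubling. That percentile lay between 507 and 1133 in raw signal, and between 50.7% and 61.4% of probes were well above background. Differences are given with the standard error (SE) of a limma fit to all 12 arrays, and a gene was called when its p, adjusted by Benjamini-Hochberg over the 19038 genes, was under 0.05. Each class had its own slide and its own scan, so for every difference between IVF, siCont and siXist the slide, the scan and the class cannot be told apart. In whole embryos fewer cells of a type and less RNA per cell cannot be told apart either. The embryo markers, 13 of 14 matched, had summed signals of 782 to 951 times the percentile in IVF embryos, 619 to 807 in siCont clones and 482 to 777 in siXist clones, and 11 to 13 of them were above background in every embryo. That sum follows the brightest marker, Dppa5a, at 7.72 to 9.03. Within the list Sox2 ran from -1.43 to 1.49 in IVF embryos and from -8.27 to 0.74 in siCont clones and -8.86 to -2.35 in siXist clones. Cdx2 ran from 4.37 to 5.13 in IVF embryos and was -2.93 and -7.87 in siCont clones 2 and 3, against 1.34 to 3.83 in the other clones. Neither passed the test. Krt18 went the other way, at 3.63 to 4.71 in IVF embryos, 4.63 to 6.11 in siCont clones and 4.52 to 5.66 in siXist clones. Zfp42 ran from 5.93 to 6.22 in IVF embryos and was lower in every clone, at 4.37 to 5.66 in siCont and 4.76 to 5.72 in siXist. Of the 13 markers, 3 were higher than IVF and 10 lower in siCont clones, and 4 were higher and 9 lower in siXist clones. Over all genes 48.1% and 38.3% were higher. The median differences were -0.36 and -0.38, against -0.04 and -0.23 for all genes. None of the 13 was called, where 0.415% and 0.578% of all genes were. The part of these markers in the results was not tested. The 12 Sertoli cell markers summed to 1.77 to 4.11 times the percentile in IVF embryos, 0.800 to 5.32 in siCont clones and 0.711 to 3.98 in siXist clones, and 4 to 6, 5 to 6 and 5 to 8 of them were above background. Amh and Inha were among those not well above background on any array. Cldn11 was not above background on any IVF array, with levels of -8.30 to -6.35, and reached -4.70 in siCont and -2.33 in siXist clones. Clu ran from -3.68 to -1.98 in IVF embryos, from -2.44 to -0.59 in siCont clones and from -2.49 to 0.01 in siXist clones. Sox9 went the other way, at -1.23 to 1.60 in IVF embryos, -4.12 to -0.32 in siCont clones and -9.03 to 0.81 in siXist clones. Of the 6 Sertoli cell markers tested, 4 were higher than IVF and 2 lower in siCont clones. In siXist clones 2 were higher and 4 lower, and none was called in either. Over all genes 48.1% were higher in siCont and 38.3% in siXist clones.

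DNA upstream of a gene's start is shown here for 4 of the genes and for Ldha and Fam162a, a pair of HIF targets that passed the test in the clones, chosen after their matches to the motifs were known. The 250 bases before the start come from RefSeq on the mouse build GRCm38.p6, written 5′ to 3′ on the strand of the gene. Capitals mark ACGTG or GCGTG, the cores of the sequence that HIF is known to bind, on either strand (as CACGT or CACGC where the core lies on the opposite strand). CACGTG, an E-box of the kind that Bhlhe40 is known to bind, reads as ACGTG on both strands and so overlaps that motif. A match is a description of these letters, not a binding site.

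Bnip3 (chr7:138909507-138909756, minus strand): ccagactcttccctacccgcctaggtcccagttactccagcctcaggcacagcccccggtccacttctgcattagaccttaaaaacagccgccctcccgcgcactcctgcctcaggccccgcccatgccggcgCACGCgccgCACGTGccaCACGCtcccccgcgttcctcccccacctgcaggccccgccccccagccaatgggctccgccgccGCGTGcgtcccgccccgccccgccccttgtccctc
Egln3 (chr12:54203875-54204124, minus strand): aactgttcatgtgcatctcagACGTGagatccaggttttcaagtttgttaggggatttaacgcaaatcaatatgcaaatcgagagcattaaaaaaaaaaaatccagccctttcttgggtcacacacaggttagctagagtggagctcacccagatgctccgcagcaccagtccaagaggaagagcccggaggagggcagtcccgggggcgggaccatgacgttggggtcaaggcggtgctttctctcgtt
Adm (chr7:110627407-110627656, plus strand): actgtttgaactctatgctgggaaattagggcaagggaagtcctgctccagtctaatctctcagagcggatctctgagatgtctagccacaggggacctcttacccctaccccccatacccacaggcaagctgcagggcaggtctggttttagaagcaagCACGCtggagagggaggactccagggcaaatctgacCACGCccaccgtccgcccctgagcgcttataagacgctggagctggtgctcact
Vegfa (chr17:46032378-46032627, minus strand): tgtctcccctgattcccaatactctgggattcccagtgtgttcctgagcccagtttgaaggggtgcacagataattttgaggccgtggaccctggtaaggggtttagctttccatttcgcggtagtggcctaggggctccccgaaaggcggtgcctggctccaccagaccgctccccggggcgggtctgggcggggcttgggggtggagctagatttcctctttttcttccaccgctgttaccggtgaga
Ldha (chr7:46845554-46845803, plus strand): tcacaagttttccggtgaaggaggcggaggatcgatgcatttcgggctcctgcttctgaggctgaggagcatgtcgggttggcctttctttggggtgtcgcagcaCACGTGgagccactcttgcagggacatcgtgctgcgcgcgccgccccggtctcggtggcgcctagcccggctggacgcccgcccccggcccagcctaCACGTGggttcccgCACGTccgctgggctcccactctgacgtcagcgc
Fam162a (chr16:36071562-36071811, minus strand): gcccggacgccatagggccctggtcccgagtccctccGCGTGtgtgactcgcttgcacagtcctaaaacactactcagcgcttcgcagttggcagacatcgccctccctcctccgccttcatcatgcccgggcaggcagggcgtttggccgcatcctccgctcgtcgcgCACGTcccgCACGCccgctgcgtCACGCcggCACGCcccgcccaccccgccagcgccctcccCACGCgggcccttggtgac

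Bnip3 carried 1 CACGTG, 103 bases before its start, where it counts as 2 matches to ACGTG, and 3 matches to GCGTG. Egln3 had a single ACGTG, 225 bases before its start, and Adm had 2 GCGTG and no ACGTG. The Vegfa start shown held neither core, and a second Vegfa start in the table held 1 of each. Ldha had 5 matches to ACGTG, the nearest 30 bases before its start, of which 4 came from CACGTG, and Fam162a had 1 ACGTG and 5 GCGTG. A second Ldha start had 1 GCGTG and no ACGTG, the Pfkl promoter had 1 GCGTG and no ACGTG, and that of Tpi1 held neither. Over 32851 mouse promoters of the same length, 16.6% held ACGTG, 28.2% held GCGTG, 38.6% held either and 6.02% held CACGTG. Among the hypoxia genes, 8 of 10 had an entry, and 5 of their 9 promoters held ACGTG and 7 held either core. Of the 7 promoters of the 6 list genes that passed the test in any comparison, 4 held ACGTG and 6 held either core. Both sets include genes chosen as known HIF targets, and Vegfa and Ldha count with 2 starts each. These counts are a description and were not tested. Bhlhe40 and Epas1 had no entry.

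Bhlhe40 was dim in embryos from fertilisation and bright in nearly all clones. Its levels in IVF embryos 1 to 4 were -5.66, -3.22, -5.46 and -4.66. In siCont clones 1 to 4 they were 0.07, 1.40, 3.42 and 2.04, and in siXist clones 1 to 4 they were 1.33, 0.79, 0.33 and -3.58. The 4 siCont clones all lay above every IVF embryo, and 3 of the 4 siXist clones did, while siXist clone 4 lay within the IVF range. Its probe was well above background on all 12 arrays. The class means were -4.75 ± 1.11 (SD, n = 4) in IVF, 1.73 ± 1.39 (SD, n = 4) in siCont and -0.28 ± 2.23 (SD, n = 4) in siXist. The order of the classes was thus siCont, siXist, IVF, with siCont and siXist overlapping.

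The siCont clones exceeded IVF embryos in Bhlhe40 by 6.48 ± 1.07 (SE) in log2, or 89.4-fold, which was the rank 11 difference upward of 19038 genes. The siXist clones exceeded IVF embryos by 4.47 ± 1.07, or 22.1-fold. The siXist minus siCont difference was -2.01 ± 1.07, and it was -0.91 without siXist clone 4. Which of these comparisons led to the choice of the gene is not recorded. A different handling of background, normexp correction with quantile normalisation, gave 4.67 for siCont minus IVF, 2.95 for siXist minus IVF and 3.81 for all clones minus IVF.

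Between the sexes, a comparison that the choice of the gene is taken not to have used, the female IVF embryos lay above the male ones in Bhlhe40 by 1.62 ± 1.51 (limma, adjusted p = 1.00). The pairs did not overlap, as for 16.9% of all genes in that direction with 2 embryos on each side.

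**Figure D1:**
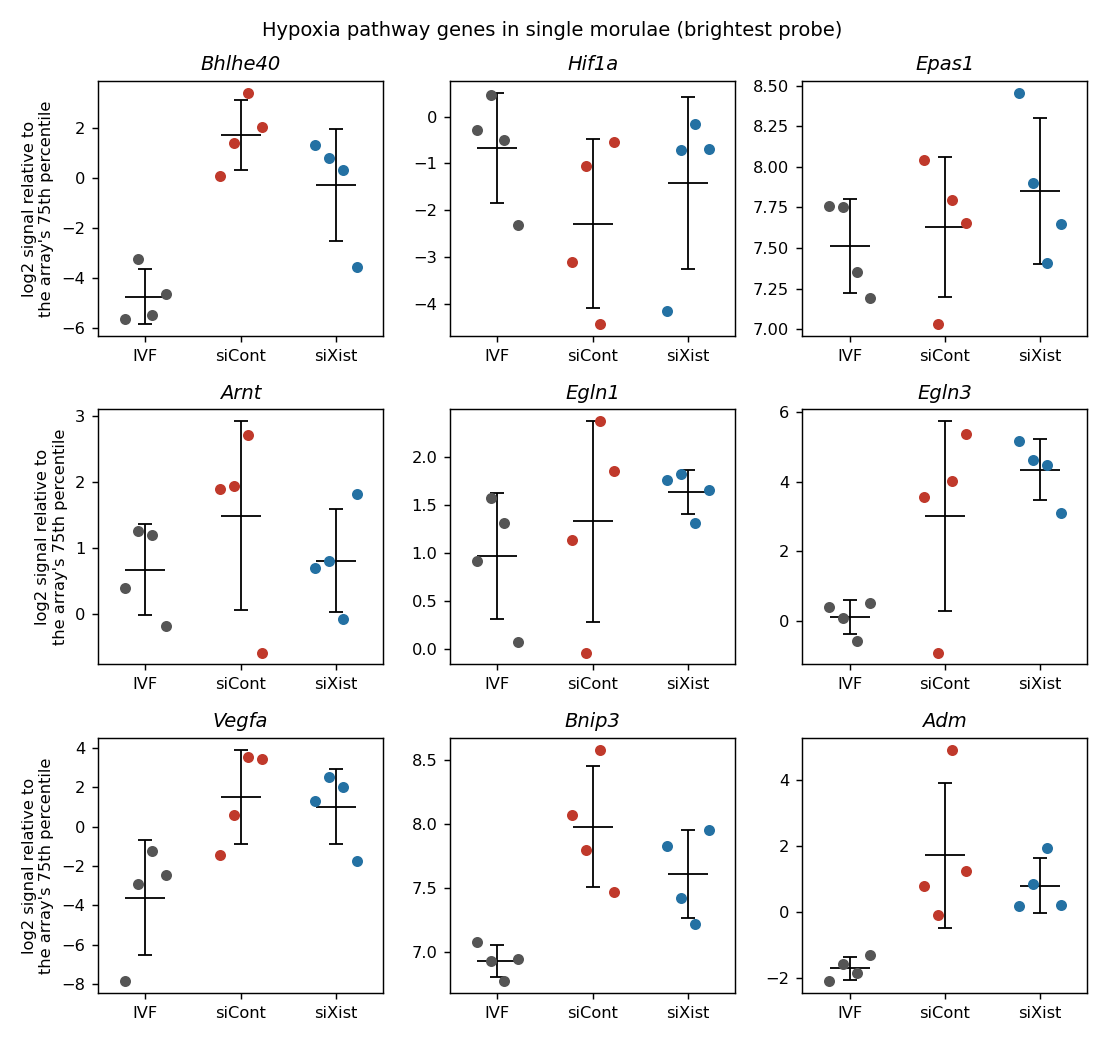
Log2 signal relative to the array's 75th percentile (vertical axis) in each of the 12 embryos by class (horizontal axis), 1 panel for each of the 9 measured genes; points are embryos, horizontal marks are class means and error bars are 1 SD (n = 4). Bhlhe40, Vegfa, Adm and Egln3 were low in the IVF embryos with most clones above them, Bnip3 ran from 6.77 to 8.59, and the Hif1a values of the classes overlapped.

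The genes for the HIF subunits did not pass the test. Hif1a, the alpha subunit best known from low oxygen, had levels of -0.29, 0.46, -0.50 and -2.32 in IVF embryos 1 to 4. It had -3.11, -1.06, -4.45 and -0.55 in siCont clones 1 to 4, while the siXist clones had -4.15, -0.71, -0.15 and -0.68. The lowest values were those of siCont clones 1 and 3 and siXist clone 1, the classes overlapped, and no clone exceeded the highest IVF embryo. The difference from IVF was -1.63 ± 1.12 in siCont clones (limma, adjusted p = 0.556) and -0.76 ± 1.12 in siXist clones (adjusted p = 0.776), where it was 0.15 without siXist clone 1. On this scale Hif1a alone of the 9 measured genes had a mean below IVF in both kinds of clone.

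Epas1, which encodes the HIF-2 alpha subunit, was well above background on all 12 arrays with its brighter probe, at 7.76, 7.75, 7.35 and 7.19 in IVF embryos 1 to 4. The siCont clones had 8.04, 7.03, 7.79 and 7.65 and the siXist clones 8.46, 7.90, 7.41 and 7.65. All 3 classes overlapped, and the difference from IVF was 0.12 ± 0.35 (adjusted p = 0.906) in siCont and 0.34 ± 0.35 (adjusted p = 0.675) in siXist clones. In the value table of the authors, whose scale per array is unknown, the siCont difference was -0.98.

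A second Epas1 probe gave another picture, with levels of -4.64, -5.95, -7.21 and -3.54 in IVF embryos, where embryos 2 and 3 were not above background. It gave -2.75, -3.18, -4.97 and -2.80 in siCont clones, while the siXist clones had -1.09, -0.65, -3.09 and -2.14. All siXist clones lay above all IVF embryos on that probe. It passed the filter on dim probes only through the clones, so its differences from IVF are a description. Its siXist minus IVF difference was 3.59 ± 0.84 and its siCont minus IVF difference 1.91 ± 0.84, with p adjusted over all kept probes of 0.119 and 0.374. The 2 probes thus differed in the size of the difference, and their levels cannot be set against each other.

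Arnt, the constant partner of both alpha subunits, lay between -0.18 and 1.26 in IVF embryos, between -0.60 and 2.71 in siCont clones and between -0.09 and 1.81 in siXist clones on its brighter probe. The difference from IVF was 0.82 ± 0.72 (adjusted p = 0.654) in siCont and 0.14 ± 0.72 (adjusted p = 0.947) in siXist clones. The siCont value had the other sign in the authors' table, -0.27. Its second probe gave 0.63 and 0.82.

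The oxygen-sensing enzymes were next. Egln1 encodes PHD2, the main prolyl hydroxylase, and Egln3 encodes PHD3, whose gene is itself a known HIF target. Egln1 lay between 0.08 and 1.57 in IVF embryos, between -0.04 and 2.37 in siCont clones and between 1.31 and 1.82 in siXist clones. Its difference from IVF was 0.36 ± 0.53 (adjusted p = 0.798) in siCont clones, with -0.73 in the authors' table, and 0.67 ± 0.53 (adjusted p = 0.585) in siXist clones. Its second probe gave 0.81 and 0.50, with siCont clone 3, at 0.42, above the other siCont clones at -3.78 to -1.28.

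Egln3 gave 0.40, 0.07, -0.59 and 0.51 in IVF embryos 1 to 4. The siCont clones had 3.55, -0.93, 4.02 and 5.38, and the siXist clones 5.16, 4.63, 4.48 and 3.09. Every siXist clone lay above every IVF embryo, and so did siCont clones 1, 3 and 4, while siCont clone 2 lay below them all. The siXist minus IVF difference was 4.24 ± 1.15 (limma, adjusted p = 0.154) and the siCont minus IVF difference 2.91 ± 1.15 (adjusted p = 0.313), neither past the threshold. In a fit to only the siXist and IVF arrays the siXist adjusted p was 0.0289. Without siCont clone 2 the adjusted p was 0.0193 for siXist and 0.0405 for siCont, where the difference was 4.22.

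The target genes included the members nearest to Bhlhe40. Adm, which encodes the vessel-relaxing peptide adrenomedullin, had levels of -2.11, -1.57, -1.87 and -1.30 in IVF embryos. It had 0.77, -0.09, 4.92 and 1.24 in siCont clones, while the siXist clones had 0.16, 0.84, 1.95 and 0.22. All 8 clones lay above all 4 IVF embryos, and siCont clone 3 was far above the other clones. The differences from IVF were 3.42 ± 0.94 (limma, adjusted p = 0.176) and 2.50 ± 0.94 (adjusted p = 0.279), which did not pass the test. For all clones together the adjusted p was 0.151, and 0.0362 without siCont clone 3, where the difference was 2.43.

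Bnip3, a mitochondrial protein that marks mitochondria for removal, was well above background in every embryo, at 7.07, 6.93, 6.77 and 6.94 in IVF. It had 8.07, 7.80, 8.59 and 7.47 in siCont clones, while the siXist clones had 7.83, 7.42, 7.22 and 7.96. Again all 8 clones lay above all IVF embryos, whose spread was small, with an SD of 0.13. The siCont minus IVF difference was 1.05 ± 0.32 (limma, adjusted p = 0.218) and the siXist minus IVF difference 0.68 ± 0.32 (adjusted p = 0.386). These were -0.04 and 0.72 in the authors' table, in which all genes had medians of -1.13 and -0.19. With normexp correction and quantile normalisation the adjusted p was 0.0348 and 0.0332.

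Vegfa, the growth factor that draws in blood vessels, was read by 4 probes. The brightest gave -7.86, which was not above background, -2.91, -1.22 and -2.44 in IVF embryos. The siCont clones had -1.42, 0.61, 3.52 and 3.43 and the siXist clones 1.29, 2.54, 2.01 and -1.73. In each kind of clone 3 of 4 lay above every IVF embryo, the exceptions being siCont clone 1 and siXist clone 4. The differences from IVF were 5.14 ± 1.60 (limma, adjusted p = 0.221) and 4.64 ± 1.60 (adjusted p = 0.244). Without IVF embryo 1 they were 3.48 and 2.98, and 3.23 for all clones, so their size rests in part on a value at background.

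A second Vegfa probe, above background on all arrays, lay between -5.50 and -2.98 in IVF, between -1.75 and 1.86 in siCont and between -2.68 and 1.22 in siXist, so the clones did not overlap IVF. It gave 4.30 ± 0.98 and 3.41 ± 0.98, with p adjusted over all kept probes of 0.120 and 0.186. The other 2 probes match another Vegfa transcript record. One was above background in 1 of 4 IVF embryos, 3 of 4 siCont clones and 3 of 4 siXist clones and gave 3.36 and 3.56, and the other gave -0.04 and -0.26. The probe with 3.36 and 3.56 passed the filter on dim probes only through the clones, so those differences are a description.

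**Figure D2:**
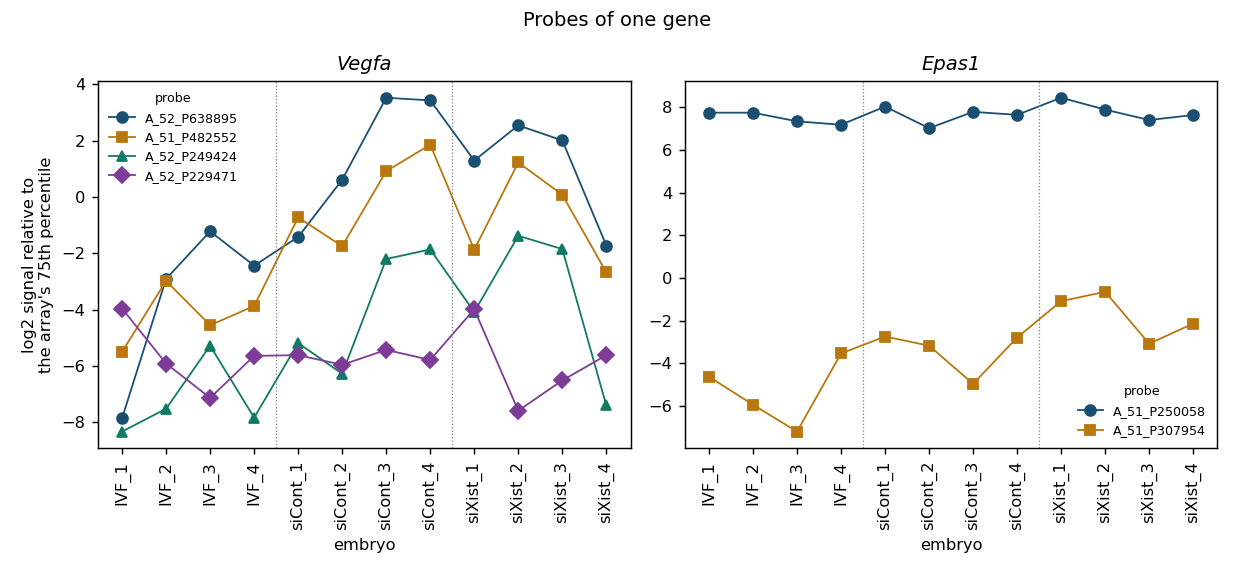
Log2 signal relative to the array's 75th percentile (vertical axis) of every probe of Vegfa and Epas1, by embryo (horizontal axis); each line is 1 probe and only joins its values. Of the 4 Vegfa probes 1 showed siCont minus IVF and siXist minus IVF differences of -0.04 and -0.26 while the other 3 gave 3.36 to 5.14. The Vegfa probe with 3.36 in siCont clones and the dimmer Epas1 probe passed the filter on dim probes only through the clones.

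Bhlhe40 was therefore not alone in lying high in the clones, but no other member passed the test. Of the 8 other genes, 0 were called in siCont clones against IVF embryos by limma, where 0.415% of all genes were called, and 4 (Egln3, Vegfa, Bnip3 and Adm) had an unadjusted p under 0.05, where 13.6% of all genes did. Adjusted p-values of the 8 ran from 0.176 to 0.906. A difference above 0 was seen in 7 of the 8, with a median of 0.94, against 48.1% of all genes and a median of -0.04. Groups without overlap, clones above IVF, were seen in 2 of 8 (Bnip3 and Adm) against 5.53% of all genes.

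In siXist clones against the same IVF embryos, again 0 of 8 were called, where 0.578% of all genes were, and 3 (Egln3, Vegfa and Adm) had an unadjusted p under 0.05, where 13.9% of all genes did. Adjusted p-values ran from 0.154 to 0.947, and 7 of the 8 lay above 0, against 38.3% of all genes, with a median of 0.67 against -0.23. The groups did not overlap for 3 of 8 (Egln3, Bnip3 and Adm), with clones above IVF, against 3.48% of all genes. For all clones against IVF embryos 0 of 8 were called, where 0.909% of all genes were, and the 4 with an unadjusted p under 0.05 compare with 13.4% of all genes. The groups did not overlap for Bnip3 and Adm, against 1.02% of all genes.

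**Figure D3:**
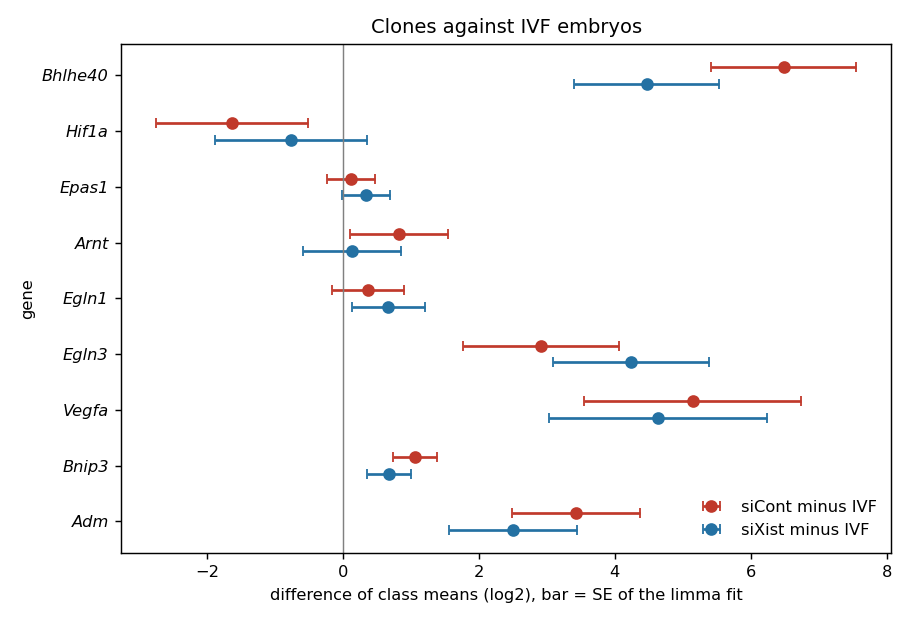
Difference from IVF embryos in log2 (horizontal axis) for each of the 9 measured genes (vertical axis) in siCont clones and in siXist clones, with bars of 1 SE of the limma fit. Bhlhe40, Vegfa, Adm and Egln3 lay furthest to the right, from 2.50 to 6.48, and Hif1a lay below 0 in both; Bhlhe40 has no test and no other difference passed one, and in the authors' value table the siCont differences of Epas1, Arnt, Egln1 and Bnip3 were below 0.

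Between siXist and siCont clones none of the 8 was called, where 0.0105% of all genes were, 0 had an unadjusted p under 0.05, where 13.9% of all genes did, and adjusted p-values ran from 0.598 to 0.899. The largest difference upward was that of Egln3, 1.34 ± 1.15, and the largest downward that of Adm, -0.92 ± 0.94. The Adm value was 0.15 without siCont clone 3 and 0.22 in the authors' table. Bnip3 gave -0.37 ± 0.32 and Vegfa -0.51 ± 1.60, and they gave 0.76 and 0.63 in the authors' table, in which all genes had a median of 0.93.

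Between female and male IVF embryos 0 of 9 members were called, where 0.0158% of all genes were, and 0 had an unadjusted p under 0.05, where 1.53% of all genes did. Adm, at -1.57 and -1.30 in females and -2.11 and -1.87 in males, was the other member besides Bhlhe40 whose pairs did not overlap, with a difference of 0.55 ± 1.33. It was -0.15 in the authors' table.

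The wider pathway was read through lists of genes chosen by function, with earlier results of these data known. Among 17 other regulators of HIF, such as the hydroxylase gene Hif1an and the ubiquitin ligase parts Cul2 and Rbx1, 15 were tested and 0 were called in any of the 5 comparisons. The share of all genes called in these comparisons ran from 0.0105% to 0.909%. The median difference of the regulators from IVF was 0.08 in siCont and -0.20 in siXist clones, near the medians of all genes, -0.04 and -0.23. P4htm, a membrane-bound prolyl hydroxylase that can act on HIF alpha, had the smallest p upward, with 1.81 ± 0.50 (limma, adjusted p = 0.178) in siCont clones. It gave 1.46 ± 0.50 (adjusted p = 0.243) in siXist clones, and every clone of both kinds lay above all IVF embryos. A second P4htm probe gave 1.83 in siCont and 2.01 in siXist clones.

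Of the lists, glycolysis held the most genes that passed the test. All 22 genes of the list for glycolysis and glucose uptake were tested. In siCont and in siXist clones 3 rose and 0 fell against IVF, namely Pfkl, Ldha and Tpi1, where 0.226% and 0.284% of all genes were called higher. In siCont clones 0 were called without IVF embryo 1, 1 without IVF embryo 3 and 1 without siCont clone 2, 3 or 4. In siXist clones 1 was called without IVF embryo 1 and 1 without siXist clone 2 or 3. An unadjusted p under 0.05 with a higher mean was seen in 10 of 22 in each, against 6.84% and 5.05% of all genes. The list's median was 1.46 in siCont and 1.48 in siXist clones, and 20 and 17 of the 22 were above 0. All genes had medians of -0.04 and -0.23, with 48.1% and 38.3% above 0. In the authors' table the list's medians were 0.36 and 1.52.

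Ldha encodes the lactate dehydrogenase subunit that makes lactate from pyruvate. Its levels were 2.18, 0.81, 1.04 and -2.65 in IVF embryos 1 to 4. They were 4.05, 5.08, 5.29 and 4.74 in siCont clones 1 to 4, and the siXist clones had 4.31, 4.29, 5.47 and 4.29. All clones lay above all IVF embryos, of which embryo 4 was lowest. The 2 female IVF embryos were the lowest, with a female minus male difference of -2.53 ± 0.98 (adjusted p = 1.00) and pairs that did not overlap, as for 11.7% of all genes in that direction. All clones were male, and IVF is the mean of both sexes. The rise was 4.44 ± 0.69 in siCont (limma, adjusted p = 0.0342) and 4.24 ± 0.69 in siXist clones (adjusted p = 0.0313). Of 24 alternative settings these calls held in 15 and 14. The siCont call was lost without IVF embryo 1 or 3 or siCont clone 2, 3 or 4, and the siXist call without IVF embryo 1 or 3, siCont clone 4 or any 1 siXist clone. The highest of these adjusted p-values were 0.124 and 0.106, both without IVF embryo 3.

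Pfkl encodes the liver type of phosphofructokinase, a rate-setting enzyme of glycolysis. It had -4.35, -4.28, -3.74 and -6.21 in IVF embryos, 1 of them not above background. The siCont clones had -1.07, -1.64, -1.46 and -1.37, and the siXist clones had -1.15, -1.19, -0.40 and -0.44. The classes were wide apart, with rises of 3.26 ± 0.44 (limma, adjusted p = 0.0157) and 3.85 ± 0.44 (adjusted p = 0.00768). Tpi1, triose phosphate isomerase, rose by 2.60 ± 0.44 (adjusted p = 0.0420) and 3.16 ± 0.44 (adjusted p = 0.0192). Of 24 alternative settings the Pfkl calls held in 20 and 23, and the siCont call was lost without IVF embryo 1 (adjusted p = 0.0675). The Tpi1 calls held in 11 and 19. The siCont call of Tpi1 was lost without IVF embryo 1, 3 or 4, any 1 siCont clone or siXist clone 2 or 3, and its siXist call without IVF embryo 1 or siXist clone 2 or 3, with adjusted p of 0.138 and 0.0725 without IVF embryo 1. Ldha and Tpi1 have near-identical processed copies in the genome, and a probe may read those too.

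Of 38 HIF targets with other roles, 32 were tested, with a median of 0.33 in siCont and 0.46 in siXist clones, against -0.04 and -0.23 for all genes. An unadjusted p under 0.05 with a higher mean was seen in 10 and 7 of the 32, against 6.84% and 5.05% of all genes. In each kind of clone 8 lay above IVF without overlap, against 5.53% and 3.48% of all genes. The siXist count includes Car12, at -8.18 to -7.40 in IVF embryos and not above background on any IVF array. Car12 was above background on 4 of 12 arrays and passed the filter on dim probes only through the clones, so its part is a description. Fam162a, a mitochondrial protein linked to cell death in low oxygen, rose in both kinds of clone, by 3.57 ± 0.60 (limma, adjusted p = 0.0413) and 3.93 ± 0.60 (adjusted p = 0.0249). Its levels ran from -2.89 to -0.07 in IVF embryos, from 1.93 to 3.61 in siCont clones and from 2.10 to 3.98 in siXist clones, with no overlap. Of 24 alternative settings these calls held in 9 and 16. The siCont call was lost without IVF embryo 1, 3 or 4, any 1 siCont clone or siXist clone 2 or 4, and the siXist call without IVF embryo 1, 3 or 4 or siXist clone 2, 3 or 4. Without IVF embryo 3 the adjusted p was 0.150 and 0.0824. Ero1a, an oxidase that helps proteins fold, passed only with all clones in 1 group, at 2.04 ± 0.39 (adjusted p = 0.0431, with 0.467% of all genes called higher), and it passed in 8 of 24 alternative settings. A second Ero1a probe, above background on all arrays, gave 2.01 ± 0.69 for all clones, 3.04 for siCont and 0.97 for siXist clones. For all clones its limma p adjusted over all kept probes was 0.260, against 0.0502 for the brighter probe.

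Ankrd37, an ankyrin repeat protein and known HIF target, had the smallest p of that list without passing the threshold in siCont clones, at 4.59 ± 0.85 (limma, adjusted p = 0.0577). Its IVF levels were 2.40, 0.59, 0.61 and 0.65, the siCont clones had 4.89, 3.87, 7.66 and 6.17, and the siXist clones had 3.82, 3.48, 2.45 and 1.30. The siCont clones lay above both other classes. Between the clones, siXist minus siCont gave -2.88 ± 0.85 (adjusted p = 0.297).

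Bhlhe40 is also a part of the circadian clock, where it represses genes that CLOCK and its partner switch on. Of 20 clock genes and partners 17 were tested, with medians of -0.08 in siCont and -0.10 in siXist clones, against -0.04 and -0.23 for all genes. An unadjusted p under 0.05 with a higher mean was seen in 6 and 5 of the 17, against 6.84% and 5.05% of all genes. Without overlap, 6 and 3 lay above IVF, against 5.53% and 3.48%. All these counts include Npas2, at -7.82 to -6.30 in IVF embryos and not above background on any IVF array. Npas2 was above background on 6 of 12 arrays and passed the filter on dim probes only through the clones, so its part is a description. Cry2, a repressor within the clock, rose in siXist clones by 3.90 ± 0.66 (limma, adjusted p = 0.0366). It gave 3.64 ± 0.66 in siCont clones, where it missed the threshold (adjusted p = 0.0542), and its levels ran from -3.01 to -1.75 in IVF, from -0.57 to 2.78 in siCont and from 1.18 to 1.91 in siXist. Leaving out any 1 IVF embryo ended the siXist call of Cry2, with adjusted p from 0.0643 to 0.125, and so did leaving out any 1 siXist clone or siCont clone 1 or 4. Bhlhe41, the closest relative of Bhlhe40, was not well above background on any array.

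**Figure D4:**
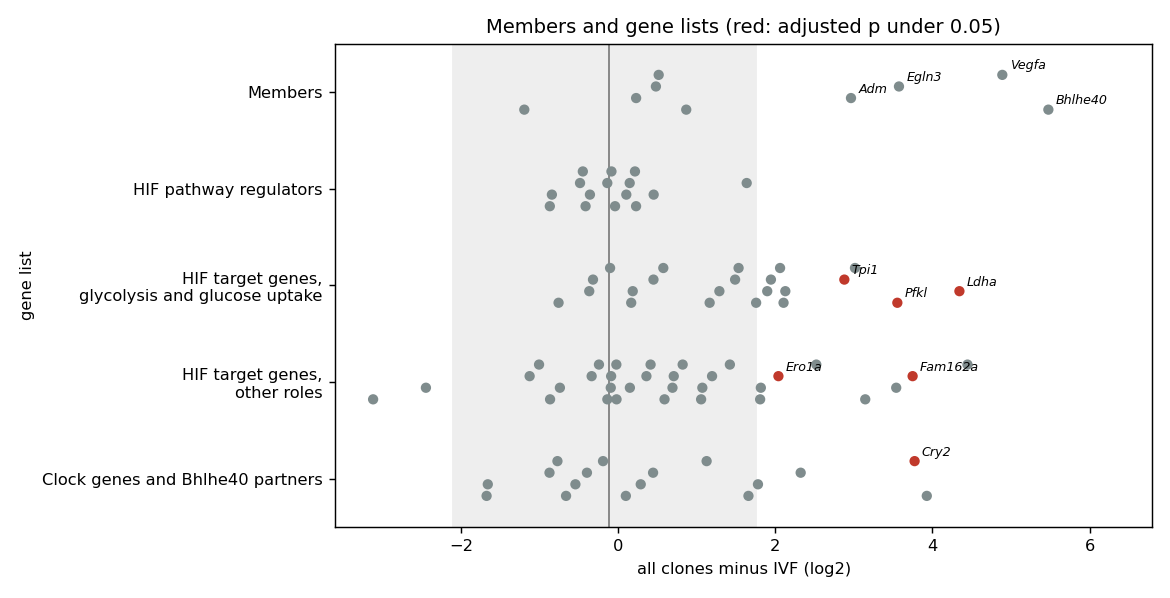
Difference of all clones from IVF embryos in log2 (horizontal axis) for the 9 measured genes and the genes of 4 lists (vertical axis), 1 point for each gene, red where the adjusted p is under 0.05; the grey band holds the middle 90% of all genes and the grey line their median, -0.12. Red points were Pfkl, Tpi1 and Ldha among glycolysis genes, Fam162a and Ero1a among other targets and Cry2 among clock genes; in the authors' value table the differences of Epas1, Arnt and Egln1 were below 0.

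The genes whose profile over the 12 embryos lay nearest to that of Bhlhe40 were found by the root mean square difference of values, each centred on its gene's mean, among 12997 genes with a symbol. This is a description of chosen values, with no test. They were Krtdap at 1.28, Id1 at 1.53, Ankrd37 and Adgrl2 both at 1.66, and Axl at 1.68, where Bhlhe40 itself varied by 3.06 about its mean. Among the members Vegfa took rank 10, at 1.71, and Adm rank 20, at 1.85. Egln3 took rank 143, Bnip3 845, Egln1 1797, Epas1 3023, Arnt 3753 and Hif1a 11697.

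Embryos within a class differed from each other in which members were high. The siCont clone 3 was the highest of its class in Bhlhe40, Vegfa, Adm, Bnip3 and Ankrd37 and the lowest in Hif1a. Its array was the dimmest, with a 75th percentile of 507 and 50.7% of probes above background, and the part of this in its values was not tested. In siXist clone 4 Bhlhe40, Vegfa, Egln3 and Ankrd37 were the lowest of their class, while Bnip3 was the highest. In siCont clone 2 Egln3 was the lowest of all 12 embryos while its Bhlhe40 level of 1.40 was above every IVF embryo.

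Markers of cumulus cells, the cells that surround the oocyte, had higher summed signals in most clones. The 12 markers summed to 2.48 to 4.61 times the percentile in IVF embryos, 4.34 to 9.02 in siCont clones and 3.85 to 7.62 in siXist clones. That sum follows the brightest marker, Amhr2, at 0.92 to 2.16 in IVF embryos, 1.94 to 3.10 in siCont clones and 1.72 to 2.82 in siXist clones. Of the 6 markers tested, 5 were higher than IVF and 1 lower in siCont clones, and 4 were higher and 2 lower in siXist clones. Over all genes 48.1% and 38.3% were higher. In siXist clones 1 of the 6 lay wholly above IVF, against 3.48% of all genes, and 2 lay wholly below. Among those below was Ptx3, at -8.89 to -8.61 in siXist clones against a lowest IVF value of -8.59. None of the 6 that were tested was called, and 3 to 5 of the 12 were above background in IVF embryos, 5 to 7 in siCont clones and 5 to 8 in siXist clones. Cyp11a1, Has2, Ptgs2, Tnfaip6 and Vcan were not above background on any IVF array, Inhba and Ptgs2 on any siCont array, and Has2 and Ptx3 on any siXist array. Their part in the results was not tested.

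**Figure D5:**
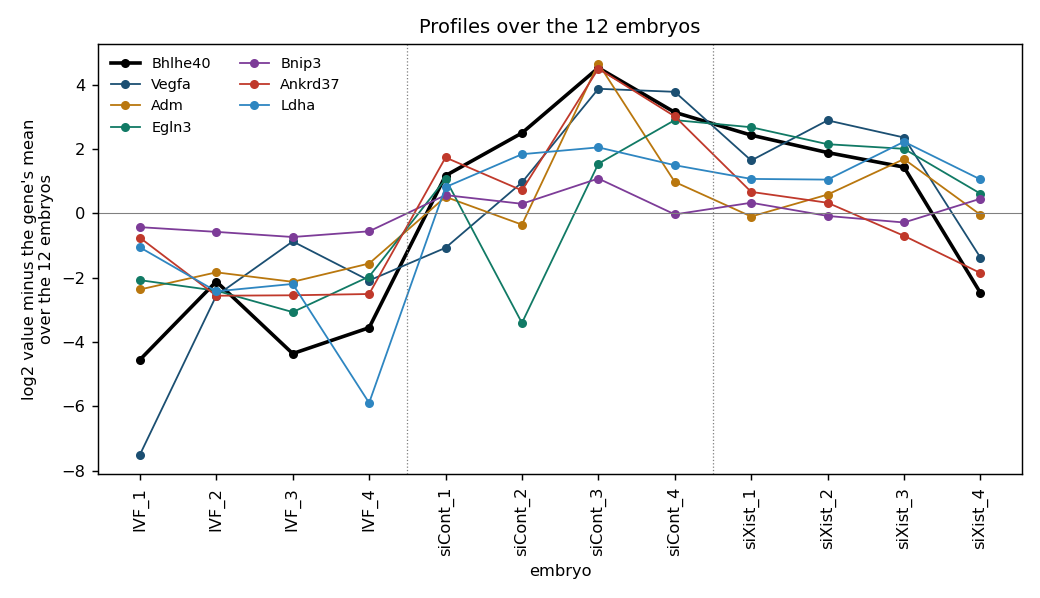
Log2 value minus the gene's mean over the 12 embryos (vertical axis) by embryo (horizontal axis) for Bhlhe40, Vegfa, Adm, Egln3, Bnip3, Ankrd37 and Ldha; lines only join the values of a gene. The IVF embryos lay below the mean for every gene shown. The peaks of Bhlhe40, Vegfa, Adm, Bnip3 and Ankrd37 were in siCont clone 3, and siXist clone 4 lay within the IVF range for Bhlhe40.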

How the data were processed

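Per the file headers, the authors deposited intensity values from Agilent Feature Extraction 10.5.1.1, background-subtracted but not normalised between arrays; RNA of single embryos was amplified in a pair of rounds, per the labels. A value table of log2 values, deposited by the authors, is centred on each probe's median, with an unknown constant for each array.

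Processed signals were taken to log2 minus the array's 75th percentile, outlier spots were left out, and spots of a probe were averaged. Probes well above background on at least 3 of 4 arrays of any class were kept (24840 of 41174), and the brightest kept probe stood for a gene. Of the probes, 65.3% matched a RefSeq symbol (GRCm38.p6). All 12 arrays were fitted in limma 3.58.1 under R 4.3.3 with means for male IVF, female IVF, siCont and siXist (8 residual degrees of freedom), and tests were two-sided. IVF is the mean of both sexes weighted equally. The fit was tested on simulated data. Figures used matplotlib 3.10.9 under Python 3.11.15.

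Members, lists and alternatives were chosen with earlier results of these data known. The text names every member and, of each list, up to 3 called genes in each direction with the largest difference, or otherwise up to 2 with the smallest p; Hif1an, Cul2, Rbx1 and Bhlhe41 are named for their roles. Testing every kept probe as its own feature was added after the data were seen. The labels call the siRNA replicates biological, and nothing says that the embryos came from separate sessions.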

Additional observations from a re-analysis of the deposited data

Results flagged for a closer look

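Hif1a in siXist clone 1, at -4.15, lay apart from the other 3 siXist clones, at -0.71, -0.15 and -0.68, with a gap of 0.858 of the range of the group. It was the only such value among 27 groups of 4 embryos (9 genes in 3 classes), and chance flags about 1 in 20 groups. The siXist minus IVF difference of Hif1a was 0.15 without that clone.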

How the results depend on the processing

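The siCont, siXist and all-clone differences of Bhlhe40 from IVF kept their sign in all alternatives, at 5.92 to 7.04, 3.93 to 5.57 and 5.12 to 6.02 when each embryo was left out, and its siXist minus siCont value ran from -2.57 to -0.91. With normexp correction the siCont, siXist and all-clone values were 4.67, 2.95 and 3.81. Leaving out an embryo gave 0 to 1 members other than Bhlhe40 called in each of siCont, siXist and all clones against IVF, and 1 to 4 with an unadjusted p under 0.05 in siXist. Such members called numbered 1 with normexp in each of those comparisons, 1 in all clones with quantile normalisation and 1 in siXist with only the groups compared. The members with an unadjusted p under 0.05 numbered 2 in siCont with the authors' table and 5 in siXist with normexp and with quantile normalisation.

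Glycolysis calls in all clones, 3 in the fit to all arrays, were 5 with normexp, quantile, pooled sexes and robust moderation, and 6 with array weights, and 2 to 4 without an embryo. In siCont they were 0 with the authors' table and with only the groups compared, and 0 to 4 without an embryo, and in siXist 5 with normexp and with array weights and 1 to 4 without an embryo. Calls among other HIF targets in all clones were 1 with normexp, quantile, the authors' table, the stricter filter and the mean of probes. In siCont they were 0 with the authors' table, the stricter filter and only the groups compared, and 2 with the floor, array weights and pooled sexes, and in siXist 0 with only the groups compared. Without an embryo these calls were 0 to 2 in each, and 0 to 1 in siXist minus siCont. Clock calls in all clones were 2 with quantile, the floor and pooled sexes, 3 with array weights and 0 with the authors' table, and 0 to 2 without an embryo. In siCont they were 1 with those first 3 and with array weights, and in siXist 0 with the authors' table and the stricter filter, with 0 to 1 without an embryo in both. The causes were not tested.

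Same-numbered embryos did not deviate together (12 pairs, correlations from -0.153 to 0.0652), and different-numbered ones ran from -0.164 to 0.160. No pairing by the titles' numbers was thus seen, but correlations over all genes cannot exclude one. With the number as a block, glycolysis calls were 1 in all clones and 0 in siCont and siXist, calls among other HIF targets 1, 0 and 0, and clock calls 0, 0 and 0. Members called stayed at 0.

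Signs turned, none of them in a called difference, with the authors' table for Adm (female minus male -0.15, siXist minus siCont 0.22), Arnt (all clones -0.050, siCont -0.27, siXist minus siCont 0.45), Bnip3 (siCont -0.044, siXist minus siCont 0.76), Egln1 (all clones -0.014, siCont -0.73), Epas1 (all clones -0.30, siCont -0.98) and Vegfa (siXist minus siCont 0.63). That table shifts the median of all genes to -1.13 in siCont minus IVF and 0.93 in siXist minus siCont. The mean of probes gave -0.00158 for Egln1 in siXist minus siCont. Without an embryo, siXist minus siCont ran from -1.52 to 0.15 for Adm, from -0.15 to 0.65 for Egln1 and from -1.49 to 0.41 for Vegfa. Against IVF, siXist ran from -0.22 to 0.50 for Arnt and from -1.46 to 0.15 for Hif1a, and siCont from -0.011 to 0.82 for Egln1 and from -0.025 to 0.32 for Epas1. With 4 arrays in each class, their number limits how precise any difference can be.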
